A study of Homo sapiens with 22 samples.

Results

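The interferon-stimulated genes are a set of 41 human genes whose transcription rises when a cell meets an interferon. The rule names well-known members of the set and holds no threshold on a measured value. The list was, however, chosen with earlier results of these data known. All 41 were among the 20668 gene symbols given in every RNA-seq sample. Of the 41, 38 passed a filter that asked for an RPKM of 0.5 or more in any 2 samples, and 12713 symbols passed it in all. RPKM counts the reads on a gene, scaled to transcript length and to the reads mapped in the sample, so levels of different genes can be set side by side. IFI44L, USP18 and CXCL10 did not pass, and the highest RPKM of each stayed at or below 0.246 in the 10 samples.

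Interferons are secreted proteins that bind receptors on the cell surface and switch on the kinases JAK1, JAK2 and TYK2. The kinases phosphorylate transcription factors, among them STAT2, which joins IRF9 in a complex that binds a DNA sequence called the interferon-stimulated response element (ISRE). Gamma-activated sites (GAS) are a separate element, used by interferon-γ. The genes behind these elements sense viral nucleic acid, block translation and viral entry, degrade RNA or feed back on the pathway. Many carcinoma lines keep a part of this set on without added interferon. Glucocorticoids act through the glucocorticoid receptor (GR), a nuclear receptor that binds DNA and is widely used as a drug target to dampen inflammatory transcription.

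RNA was measured in MDA-MB-231, an established triple-negative breast cancer (TNBC) line, kept in phenol red-free medium with charcoal-stripped serum for 3 days, which removes steroids. The 5 groups were vehicle, 100 nM dexamethasone (Dex, a synthetic glucocorticoid) for 2 h, Dex for 4 h, 10 µM Compound A (CpdA, a non-steroidal GR ligand) for 2 h, and CpdA for 4 h, with 2 samples each. No group was labelled as given an interferon. No label gave a time for vehicle. The column headers, however, named vehicle replicate 1 for 2 h and replicate 2 for 4 h, so the pair is shown separately and any difference between them cannot be told apart from a difference in time.

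The libraries labelled Dex behaved as labelled. TSC22D3, a classical glucocorticoid-induced gene, stood at 9.79 and 8.22 RPKM in vehicle, between 302 and 315 RPKM in the 4 Dex samples, and between 10.5 and 12.4 RPKM in the 4 CpdA samples. PER1, another such gene, stood at 2.07 and 1.28 RPKM in vehicle and 34.9 to 38.7 RPKM in the 4 Dex samples. With CpdA, PER1 was at 3.96 and 3.86 RPKM at 2 h, and 2.88 and 3.02 RPKM at 4 h. In limma fits TSC22D3 and PER1 were higher with CpdA than with vehicle at each time (adjusted p from 0.0033 to 0.03). FKBP5, also induced by glucocorticoids, was higher with CpdA at 4 h only (adjusted p = 0.023). Of the markers of the line, VIM was listed at 1267 to 1464 RPKM and ESR1 was at or near 0, as for TNBC, while ERBB2 (15.9 to 21.6 RPKM) and EPCAM (8.02 to 10.6 RPKM) were not absent. Of markers of leukocytes, PTPRC and CD3E were at or near 0, and CD14 was listed at 2.17 to 2.89 RPKM. Read totals are not known. From the step that 1 read is worth at low values, relative depth was 1.0 and 1.01 in the vehicle samples and between 1.06 and 1.21 in the treated ones, all of which were deeper. In a whole culture, fewer cells expressing a gene and less RNA per cell cannot be told apart.

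Short stretches upstream of members are shown because their letters match the elements used in interferon signalling. Whether these stretches are used in these cells was not tested. Each is 30 bases long, comes from a RefSeq promoter window (250 bases before to 50 after a start site) matched to GRCh37, and is read on the strand of its gene. Capitals mark a match to the ISRE core (GAAA, any 2 bases, GAAA) on either strand, or in IRF1 to the GAS letters (TTC, any 3 bases, GAA). IFIT3, IFIT1, GBP1, SAMD9 and IRF1 were lower after Dex, and IFI6, IFI27 and IFITM3 passed the test in no comparison.
IFIT3, chr10:91092182-91092211, plus strand: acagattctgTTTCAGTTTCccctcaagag
IFIT1, chr10:91152261-91152290, plus strand: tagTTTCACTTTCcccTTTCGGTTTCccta
GBP1, chr1:89530999-89531028, minus strand: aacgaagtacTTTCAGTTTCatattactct
SAMD9, chr7:92747409-92747438, minus strand: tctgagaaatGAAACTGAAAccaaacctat
IRF1, chr5:131826570-131826599, minus strand: acagcctgatTTCCCCGAAatgacggcacg
IFI6, chr1:27998840-27998869, minus strand: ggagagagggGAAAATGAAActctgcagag
IFI27, chr14:94576971-94577000, plus strand: cagTTTCGGTTTCctgGAAAATGAAAccta
IFITM3, chr11:320884-320913, minus strand: gGAAAAGGAAActgttgaGAAACCGAAAct

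The stretches of IFIT1, SAMD9 and IFI6 lay outside the annotated gene, those of IFIT3, IRF1, IFI27 and IFITM3 in an intron of a longer isoform, and that of GBP1 in an annotated exon. IFIT1, IFI27 and IFITM3 each held 2 core matches within the 30 bases. Of the 32 members with a window in the RefSeq table, 23 held the ISRE core. By window it was 27 of 40, against 3.57% of all 35116 windows. The core was present in 10 of the 13 members that fell after 4 h of Dex and in 11 of the other 17 tested. IFI44L and CXCL10, which were not tested, both held it. GAS letters were found in 10 of 32 members, or 11 of 40 windows, against 7.66% of all windows. NF-κB letters (GGG, any 2 bases, TT, any base, CC) were found in 4 members, or 4 of 40 windows, against 5.68%. Both strands were searched. The glucocorticoid response element (G, any base, ACA, any 3 bases, TGT, any base, C) was found in 0 of 32 members. By window it was 0 of 40, against 0.39% of all windows. ISRE and GAS matches can overlap. A match is only a match of letters, and windows of IFIT2, OASL, IRF7, GBP2, TRIM22, MX2, OAS2, IFITM2 and USP18 were not analysed here.

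The members spanned a wide range of levels in these cells. IFITM3, a membrane protein that blocks viral entry, was the most abundant, at 192 to 243 RPKM, followed by BST2 (88.5 to 102 RPKM), ISG15 (69.2 to 99.4 RPKM) and IFI27 (74.3 to 91.3 RPKM). IFIT3 averaged 29.0 RPKM over the 10 samples, MX1 4.03 RPKM and OAS1, at the low end of the genes kept, 0.565 RPKM. The sum over the 41 genes was 799.5 and 773.8 RPKM in vehicle and lay between 653.7 and 839 RPKM in the treated samples. With each gene given equal weight, the mean of log2(RPKM + 0.1) over the 38 genes was 3.02 and 2.90 in vehicle, 2.90 and 2.89 after Dex for 2 h, 2.63 and 2.60 after Dex for 4 h, 3.01 and 2.99 after CpdA for 2 h, and 2.85 and 2.87 after CpdA for 4 h. Both Dex 4 h samples lay below the other 8.

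**Figure D1:**
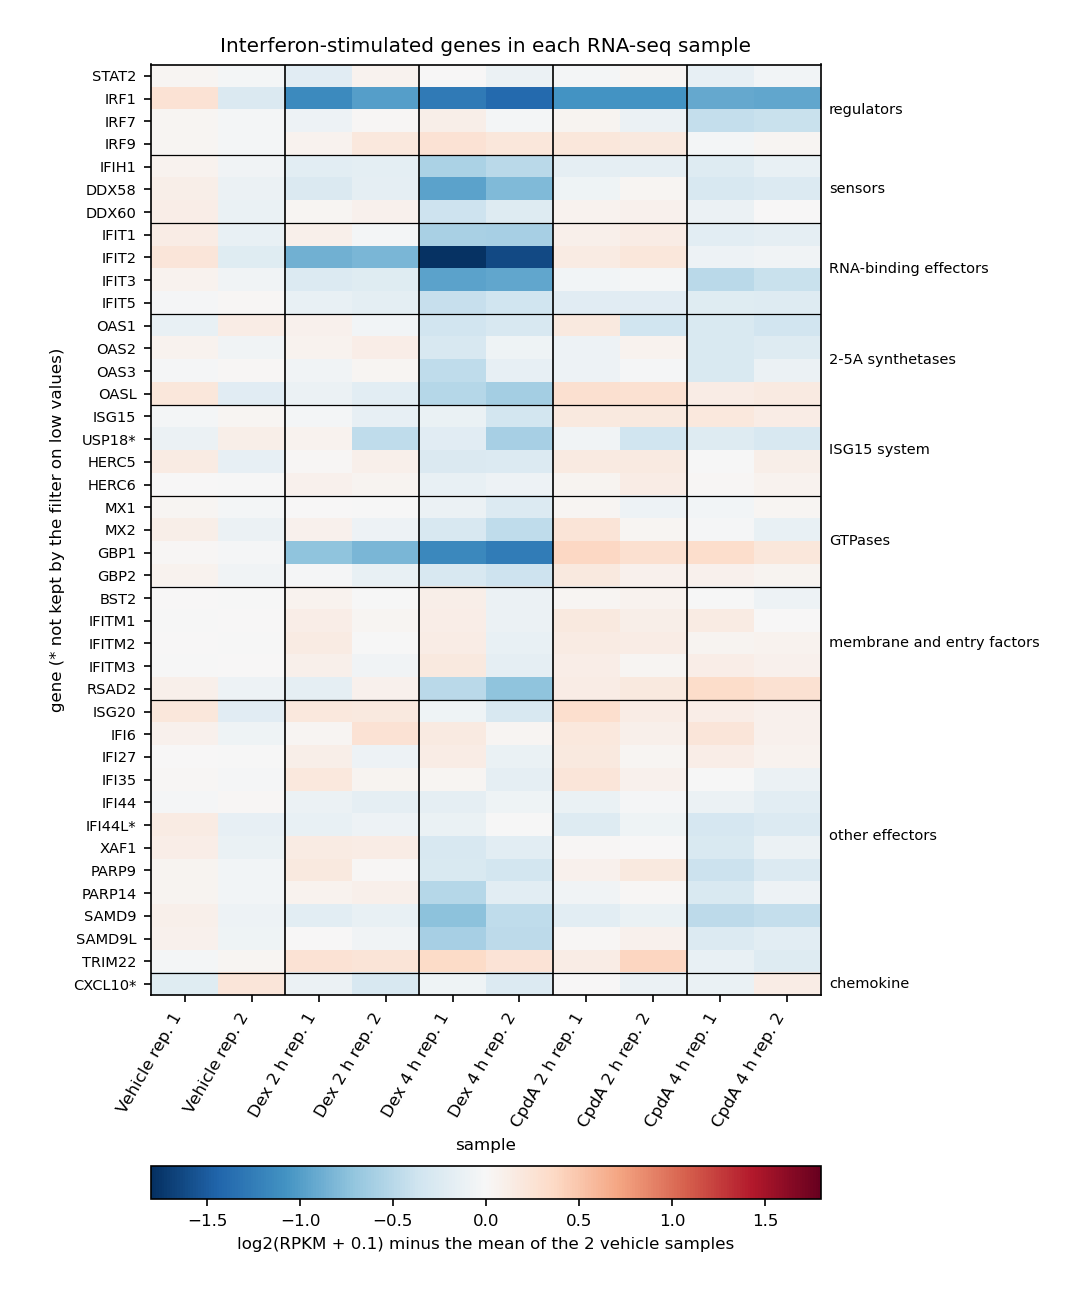
Each row is a gene, grouped by role, and each column a sample; colour gives log2(RPKM + 0.1) minus the mean of the 2 vehicle samples, with blue lower and red higher. The deepest blue is IFIT2 in the Dex 4 h samples, IRF1 is blue in all 8 treated samples, and GBP1 is blue after Dex and pale red after CpdA; asterisks mark the 3 genes not kept by the filter.

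Dex for 4 h lowered a large part of the set and raised 1 gene. IFIT2 fell by 69.3%, IRF1 fell by 60.3%, GBP1 fell by 56.8%, IFIT3 fell by 48.4% and DDX58 fell by 45.6%. In limma fits of log2(RPKM + 0.1) over all kept genes, 16 of 38 members were lower at a Benjamini-Hochberg adjusted p under 0.05, where 18.2% of all genes were, and only IRF9 was higher, where 9.26% of all genes were. At a fold change over 1.5, 8 members were lower against 4.99% of all genes, and at a fold change over 2, 3 members (IFIT2, IRF1 and GBP1) against 1.68%. The median log2 fold change was -0.28 over the members and -0.05 over all genes, and 31 of 38 members lay below 0, as did 61.8% of all genes. Both Dex 4 h samples lay below both vehicle samples for 26 members, a pattern that 36.6% of all genes showed. Without the filter, 14 of the 41 genes passed and the median was -0.26, and the share over all genes was not counted for that setting.

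Dex for 2 h changed few members. IRF1, IFIT2, GBP1 and IFIT3 were lower, 4 of 38 against 5.82% of all genes, and 0 were higher, against 4.49%. The medians were 0.01 over the members and -0.02 over all genes. CpdA for 2 h lowered IRF1 and IFIT5, 2 of 38 against 4.29% of all genes, and raised GBP1, 1 of 38 against 1.89%, with a median of 0.09 over the members and -0.02 over all genes. CpdA for 4 h lowered IRF1, SAMD9, IFIT3, IRF7, DDX58 and IFIT5, 6 of 38 against 13.8% of all genes, and raised GBP1, 1 of 38 against 6.76%, with medians of -0.07 and -0.04. The share of members called at CpdA 2 h and 4 h was thus near that of all genes. All 4 comparisons share the vehicle samples, and the 2 samples of a group are too few for an exact permutation test to go below p = 0.333.

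**Figure D2:**
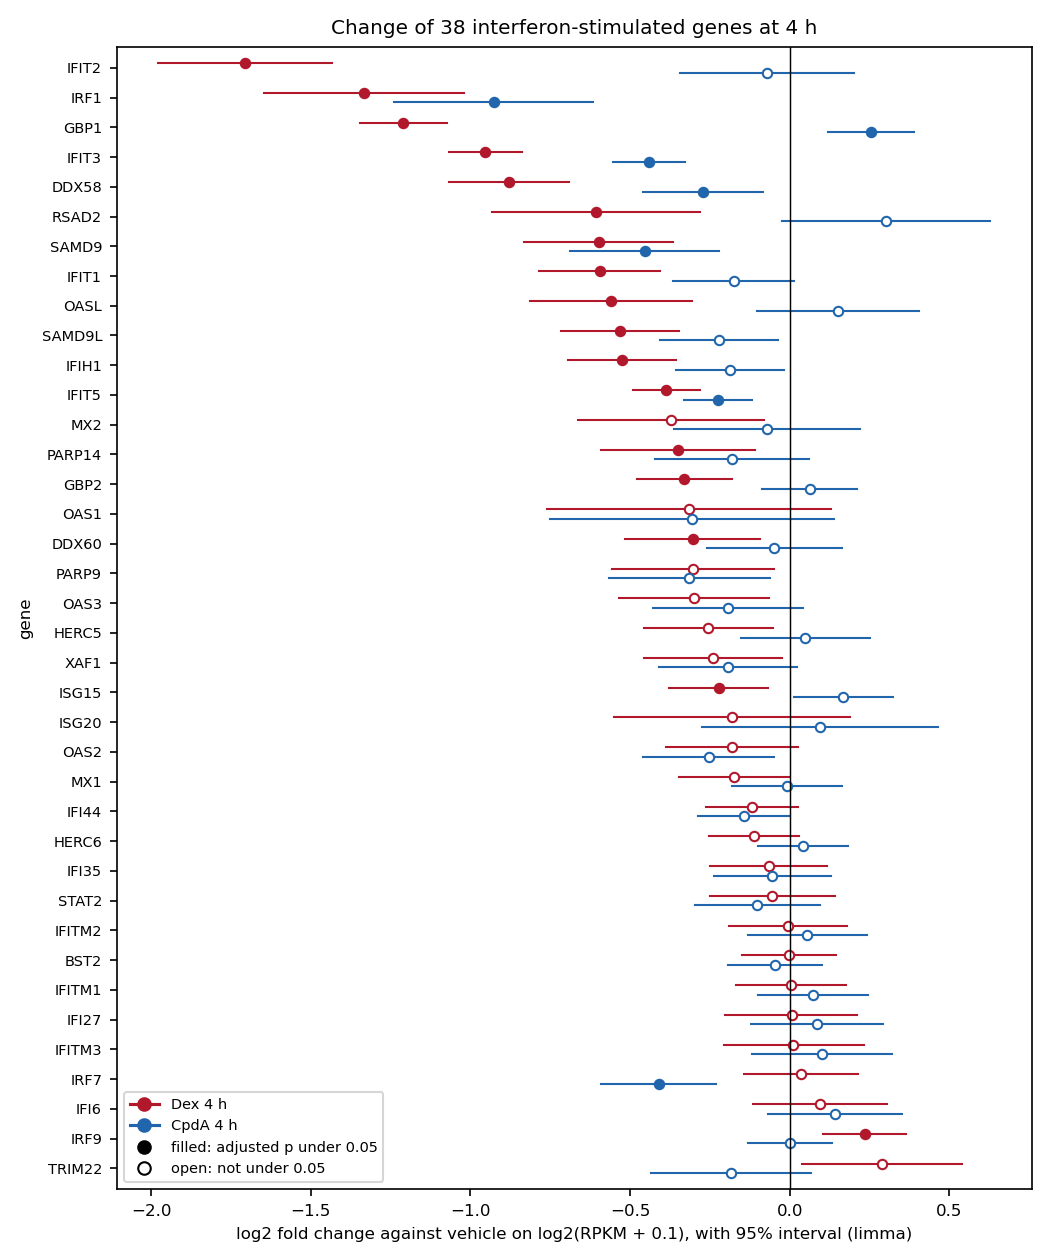
Log2 fold change of each of the 38 genes against vehicle on the log2(RPKM + 0.1) scale after 4 h of Dex (red) or CpdA (blue), with 95% intervals from limma; filled points had an adjusted p under 0.05. The Dex points reach -1.71 for IFIT2, the CpdA points reach -0.93 for IRF1, and GBP1 lies at -1.21 for Dex and 0.26 for CpdA.

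Among the regulators of the set, IRF1 was lower than vehicle after both ligands. IRF1 is a transcription factor that is itself induced by interferon-γ through its GAS site, shown above. It was listed at 21.1 and 14.7 RPKM in vehicle, 7.86 and 8.84 RPKM after Dex for 2 h, 7.22 and 6.63 RPKM after Dex for 4 h, 8.27 and 8.33 RPKM after CpdA for 2 h, and 9.26 and 9.15 RPKM after CpdA for 4 h. All 8 treated samples lay below both vehicle samples, and the vehicle samples differed from each other by 43.3%. A fall of IRF1 after both ligands cannot be told apart from a high level in the vehicle pair that the comparisons share. The log2 fold change was -1.07 for Dex 2 h (SE 0.138, limma adjusted p = 0.0009), -1.33 for Dex 4 h (SE 0.138, adjusted p = 0.0001), -1.08 for CpdA 2 h (SE 0.138, adjusted p = 0.0024) and -0.93 for CpdA 4 h (SE 0.138, adjusted p = 0.0018). Against the lower vehicle sample alone, that is without vehicle replicate 1, it was -0.81, -1.08, -0.82 and -0.67 in the same order. Against vehicle replicate 1 alone it was -1.33, -1.59, -1.33 and -1.19. IRF1 at 2 h differed between Dex and CpdA by 0.01 on the log2 scale, with a 95% interval of -0.31 to 0.32. At 4 h it was lower after Dex by a log2 difference of -0.41 (adjusted p = 0.049), and leaving out any of the 8 treated samples moved that p to between 0.063 and 0.16. The exons of IRF1 share 2805 of 12265 bases with IRF1-AS1 on the opposite strand, and strand use in counting is not stated, so reads from both cannot be told apart.

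The other regulators moved less. IRF9, the DNA-binding partner of STAT2, was listed at 8.76 and 8.38 RPKM in vehicle, 8.92 and 9.74 RPKM at Dex 2 h, 10.3 and 9.90 RPKM at Dex 4 h, 9.84 and 9.69 RPKM at CpdA 2 h, and 8.36 and 8.77 RPKM at CpdA 4 h. It was the only member higher after Dex for 4 h, by 0.24 on the log2 scale (SE 0.058, limma adjusted p = 0.015). Without vehicle replicate 2 this was 0.20 (adjusted p = 0.073) and without Dex 4 h replicate 1 it was 0.21 (adjusted p = 0.055). The exons of IRF9 share 1544 of 6471 bases with another protein-coding gene on the same strand, and how reads of shared bases were counted is not stated. IRF7, which drives the late interferon genes, stood at 5.78 and 5.48 RPKM in vehicle, 5.26 and 5.69 RPKM at Dex 2 h, 6.08 and 5.47 RPKM at Dex 4 h, 5.85 and 5.22 RPKM at CpdA 2 h, and 4.17 and 4.26 RPKM at CpdA 4 h. Its CpdA 4 h samples were the lowest pair, at a log2 fold change of -0.41 (SE 0.079, adjusted p = 0.0067), or -0.40 (adjusted p = 0.056) without CpdA 4 h replicate 1. STAT2 was listed at 17.0 and 16.1 RPKM in vehicle, 14.3 and 17.3 RPKM at Dex 2 h, 16.6 and 15.3 RPKM at Dex 4 h, 16.2 and 17.0 RPKM at CpdA 2 h, and 14.9 and 15.9 RPKM at CpdA 4 h. Its log2 difference for Dex 4 h was -0.05, with a 95% interval of -0.25 to 0.14.

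The 3 members that sense viral RNA or aid its sensing were lower after Dex for 4 h, and none passed the test at 2 h. DHX58, a relative of DDX58 and IFIH1 that is not a member, was higher with Dex and is described with the pathway genes. DDX58 (RIG-I), which detects RNA with 5′ triphosphate ends, was listed at 15.4 and 13.3 RPKM in vehicle, 11.9 and 12.8 RPKM at Dex 2 h, 7.33 and 8.20 RPKM at Dex 4 h, 13.5 and 14.7 RPKM at CpdA 2 h, and 11.7 and 12.0 RPKM at CpdA 4 h. The exons of DDX58 share 4471 of 10345 bases with another annotated protein-coding gene on the same strand. Its Dex 4 h samples were the lowest pair by a wide margin, with a log2 fold change of -0.88 (SE 0.083, limma adjusted p = 5.8e-05). For CpdA 4 h it was -0.27 (adjusted p = 0.048). It was -0.17 (adjusted p = 0.25) without vehicle replicate 1, and leaving out any Dex 2 h, CpdA 2 h or CpdA 4 h sample gave an adjusted p between 0.065 and 0.21. IFIH1 (MDA5), the sensor of long double-stranded RNA, stood at 3.83 and 3.48 RPKM in vehicle, 3.18 and 3.21 RPKM at Dex 2 h, 2.43 and 2.58 RPKM at Dex 4 h, 3.26 and 3.24 RPKM at CpdA 2 h, and 3.08 and 3.31 RPKM at CpdA 4 h. Every treated sample lay below vehicle, and the Dex 4 h fall of -0.53 passed the test (SE 0.075, adjusted p = 0.00074). DDX60, a helicase linked to RIG-I signalling, stood at 3.65 and 3.07 RPKM in vehicle, 3.45 and 3.53 RPKM at Dex 2 h, 2.56 and 2.82 RPKM at Dex 4 h, 3.51 and 3.54 RPKM at CpdA 2 h, and 3.10 and 3.37 RPKM at CpdA 4 h. Its Dex 4 h log2 fold change was -0.30 (adjusted p = 0.039), and it was -0.18 (adjusted p = 0.21) without vehicle replicate 1 and -0.24 (adjusted p = 0.15) without Dex 4 h replicate 1. Leaving out any Dex 2 h, CpdA 2 h or CpdA 4 h sample gave an adjusted p of 0.056 to 0.066 for DDX60.

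The IFIT proteins bind foreign RNA and block its translation, and their 4 genes lie side by side on chromosome 10, from IFIT2 (chr10:91043451-91069028) through IFIT3 (chr10:91087064-91137230) and IFIT1 (chr10:91152303-91166244) to IFIT5 (chr10:91174325-91181362). All 4 were lower after Dex for 4 h. IFIT2 was listed at 15.2 and 11.1 RPKM in vehicle, 7.11 and 7.29 RPKM at Dex 2 h, 3.71 and 4.13 RPKM at Dex 4 h, 14.4 and 15.0 RPKM at CpdA 2 h, and 12.2 and 12.5 RPKM at CpdA 4 h. The Dex samples lay below all vehicle and CpdA samples at both times, and the CpdA samples lay within or near the vehicle range. IFIT2 shares 524 of 4326 exon bases with a long noncoding RNA on the same strand and 65 with LIPA on the opposite strand. The log2 fold change of IFIT2 was -0.84 at Dex 2 h (SE 0.12, limma adjusted p = 0.0017) and -1.71 at Dex 4 h (SE 0.12, adjusted p = 8.1e-06), and it ranged from -1.93 to -1.48 at 4 h over the alternatives tried. For CpdA 4 h it was -0.07, with a 95% interval of -0.34 to 0.20. The vehicle samples differed by 36.6%, and the reading for CpdA depended on them: without vehicle replicate 1 the CpdA 2 h value was 0.40 (adjusted p = 0.016), and without vehicle replicate 2 the CpdA 4 h value was -0.30 (adjusted p = 0.029).

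IFIT3, a partner of IFIT1 with the ISRE core shown above, was listed at 37.1 and 34.0 RPKM in vehicle, 30.1 and 30.6 RPKM at Dex 2 h, 18.1 and 18.5 RPKM at Dex 4 h, 34.5 and 34.9 RPKM at CpdA 2 h, and 25.5 and 26.9 RPKM at CpdA 4 h. It was among the tightest members between replicates, and it fell with both ligands at 4 h, by -0.95 with Dex (SE 0.05, limma adjusted p = 1.1e-06) and -0.44 with CpdA (SE 0.05, adjusted p = 0.00044). The Dex 2 h value was -0.23 (adjusted p = 0.019), and it was -0.17 (adjusted p = 0.073) without vehicle replicate 1, -0.21 (adjusted p = 0.13) without Dex 2 h replicate 1 and -0.24 (adjusted p = 0.079) without Dex 2 h replicate 2. IFIT1, which binds RNA lacking cap methylation, stood at 7.65 and 6.38 RPKM in vehicle, 7.42 and 6.79 RPKM at Dex 2 h, 4.62 and 4.57 RPKM at Dex 4 h, 7.44 and 7.67 RPKM at CpdA 2 h, and 6.10 and 6.26 RPKM at CpdA 4 h. Its Dex 2 h samples lay inside the vehicle range and its Dex 4 h samples below all others, at -0.60 (adjusted p = 0.0007). For CpdA 4 h IFIT1 was at -0.18 (adjusted p = 0.18), or -0.30 (adjusted p = 0.024) without vehicle replicate 2. IFIT5 stood at 11.1 and 11.5 RPKM in vehicle, 10.3 and 10.0 RPKM at Dex 2 h, 8.41 and 8.78 RPKM at Dex 4 h, 9.74 and 9.80 RPKM at CpdA 2 h, and 9.70 and 9.55 RPKM at CpdA 4 h. All treated samples lay below vehicle, at -0.39 for Dex 4 h (adjusted p = 0.00028), -0.20 for CpdA 2 h (adjusted p = 0.038) and -0.22 for CpdA 4 h (adjusted p = 0.0098). The Dex 2 h value of IFIT5 was -0.15 (adjusted p = 0.085) and passed without either Dex 4 h sample (0.042 and 0.043). The CpdA 2 h call of IFIT5 was lost in 7 of the 10 fits that left out a sample (adjusted p from 0.071 to 0.24), and the CpdA 4 h call without either CpdA 4 h sample (0.062 and 0.081). Reads shared between these related genes may have been split by the authors' counting.

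**Figure D3:**
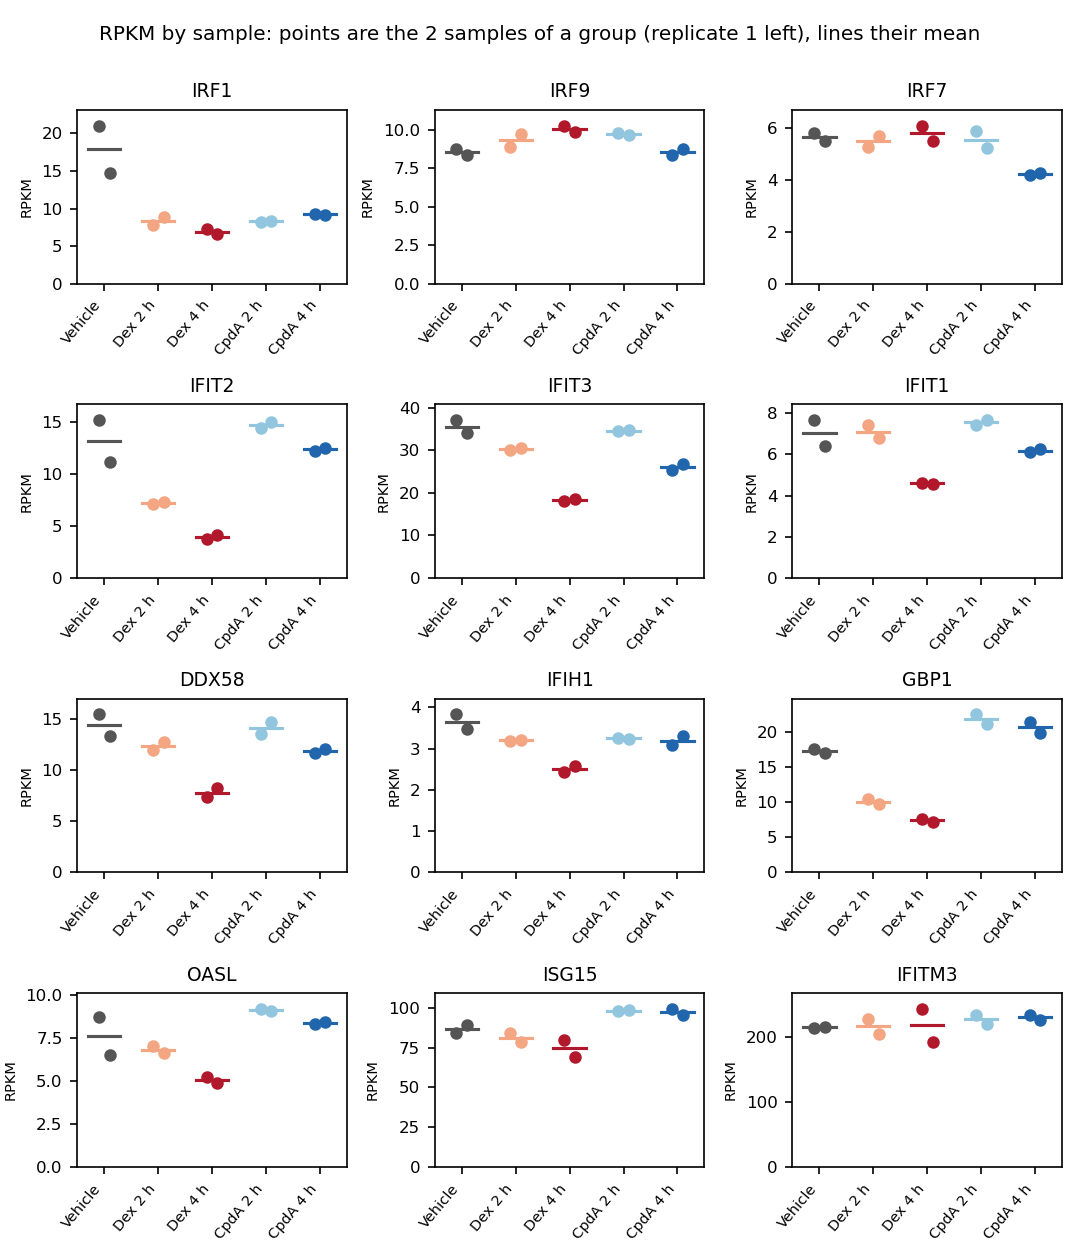
RPKM of 12 members in each of the 10 samples, on axes that start at 0; points are samples, with replicate 1 on the left, and lines are group means. IFIT2, DDX58 and GBP1 are lowest in the Dex 4 h samples, IRF1 is lower than vehicle in all 8 treated samples, and IFITM3 stays between 192 and 243 RPKM.

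The oligoadenylate synthetases activate the ribonuclease RNase L, and only their relative OASL, which lacks that activity, passed the test. OASL was listed at 8.71 and 6.52 RPKM in vehicle, 7.03 and 6.63 RPKM at Dex 2 h, 5.26 and 4.92 RPKM at Dex 4 h, 9.21 and 9.09 RPKM at CpdA 2 h, and 8.30 and 8.47 RPKM at CpdA 4 h. The Dex 4 h samples were the lowest, at -0.56 (SE 0.112, limma adjusted p = 0.0054), and the vehicle samples differed by 33.6%. Measured against vehicle replicate 2 alone, OASL was at 0.48 after CpdA for 2 h (adjusted p = 0.0053) and 0.36 for 4 h (adjusted p = 0.011), and against vehicle replicate 1 alone it was at -0.35 after Dex for 2 h (adjusted p = 0.017). OAS1 was near the filter, at 0.559 and 0.697 RPKM in vehicle, 0.665 and 0.599 RPKM at Dex 2 h, 0.473 and 0.492 RPKM at Dex 4 h, 0.720 and 0.468 RPKM at CpdA 2 h, and 0.500 and 0.473 RPKM at CpdA 4 h. Its Dex 4 h difference of -0.32 had a 95% interval of -0.76 to 0.13, so a change of this size was not detectable. OAS2 lay between 2.91 and 3.88 RPKM and OAS3 between 2.89 and 4.10 RPKM, and neither passed the test in any of the 8 comparisons.

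ISG15 is a ubiquitin-like protein and HERC5 the ligase that attaches it to other proteins. ISG15 was listed at 84.3 and 89.2 RPKM in vehicle, 84.4 and 78.2 RPKM at Dex 2 h, 79.9 and 69.2 RPKM at Dex 4 h, 97.7 and 98.4 RPKM at CpdA 2 h, and 99.4 and 95.5 RPKM at CpdA 4 h. The 4 CpdA samples lay above vehicle and the Dex 4 h samples below it. The Dex 4 h value was -0.22 (limma adjusted p = 0.04), and it was -0.12 (adjusted p = 0.13) without Dex 4 h replicate 2, -0.26 (adjusted p = 0.066) without vehicle replicate 1 and -0.18 (adjusted p = 0.18) without vehicle replicate 2. Leaving out any of the 4 CpdA samples gave an adjusted p of 0.061 to 0.065 for the same ISG15 value. The CpdA values of 0.18 at 2 h and 0.17 at 4 h did not pass (adjusted p = 0.18 and 0.12), but did without either Dex 4 h sample (0.044 or 0.045 at 2 h and 0.028 at 4 h). HERC5 stood at 8.16 and 6.61 RPKM in vehicle, 7.49 and 7.83 RPKM at Dex 2 h, 6.13 and 6.15 RPKM at Dex 4 h, 8.24 and 8.21 RPKM at CpdA 2 h, and 7.32 and 7.90 RPKM at CpdA 4 h. It did not pass against vehicle, at -0.26 for Dex 4 h (adjusted p = 0.064), and reached -0.41 (adjusted p = 0.0034) without vehicle replicate 2. For CpdA 2 h HERC5 was at 0.16 (adjusted p = 0.35), or 0.31 (adjusted p = 0.027) without vehicle replicate 1. HERC6 lay between 3.04 and 3.65 RPKM and passed nowhere.

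GBP1, an interferon-induced GTPase that attacks the membranes around intracellular pathogens, moved in opposite directions with the ligands. It lies on chromosome 1 (chr1:89517565-89531043) beside GBP2, and was listed at 17.6 and 17.1 RPKM in vehicle, 10.4 and 9.73 RPKM at Dex 2 h, 7.67 and 7.22 RPKM at Dex 4 h, 22.6 and 21.3 RPKM at CpdA 2 h, and 21.5 and 19.9 RPKM at CpdA 4 h. No 2 of the vehicle, Dex and CpdA ranges overlapped, and the vehicle samples differed by only 2.9%. The log2 fold change was -0.78 at Dex 2 h (SE 0.06, limma adjusted p = 3.2e-05) and -1.21 at Dex 4 h (SE 0.06, adjusted p = 7.9e-07), against 0.34 at CpdA 2 h (adjusted p = 0.013) and 0.26 at CpdA 4 h (adjusted p = 0.017). Both falls passed in every alternative tried. The CpdA 2 h rise was not called without vehicle replicate 2 (0.32, adjusted p = 0.083), CpdA 2 h replicate 1 (0.29, adjusted p = 0.14) or CpdA 2 h replicate 2 (0.38, adjusted p = 0.058), and the CpdA 4 h rise was not called without vehicle replicate 2 (0.24, adjusted p = 0.073) or CpdA 4 h replicate 1 (0.20, adjusted p = 0.15).

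The remaining GTPases changed less than GBP1. GBP2 stood at 13.8 and 12.5 RPKM in vehicle, 13.01 and 12.0 RPKM at Dex 2 h, 10.7 and 10.2 RPKM at Dex 4 h, 14.9 and 13.8 RPKM at CpdA 2 h, and 13.9 and 13.6 RPKM at CpdA 4 h. The Dex 4 h samples were the lowest, at -0.33 (limma adjusted p = 0.0051). GBP2 shares 621 of 7223 exon bases with GBP7 on the same strand. MX1, a GTPase that blocks influenza virus replication, was listed at 4.26 and 4.03 RPKM in vehicle, 4.18 and 4.11 RPKM at Dex 2 h, 3.85 and 3.49 RPKM at Dex 4 h, 4.26 and 3.87 RPKM at CpdA 2 h, and 4.00 and 4.24 RPKM at CpdA 4 h. Both Dex 4 h samples lay below vehicle but the difference of -0.17 did not pass (adjusted p = 0.13). MX2 lay between 1.02 and 1.72 RPKM and passed nowhere.

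The abundant membrane proteins did not follow the IFIT genes. IFITM1, IFITM2, IFITM3 and BST2 had log2 differences between -0.01 and 0.01 at Dex 4 h, and for IFITM3 the 95% interval was -0.21 to 0.23. None of the 4 passed in any comparison, and their 2 Dex 4 h samples lay on either side of vehicle. RSAD2 (viperin), which makes a chain-terminating nucleotide, was low, at 0.883 and 0.762 RPKM in vehicle, 0.723 and 0.867 RPKM at Dex 2 h, 0.557 and 0.456 RPKM at Dex 4 h, 0.910 and 0.942 RPKM at CpdA 2 h, and 1.06 and 1.01 RPKM at CpdA 4 h. It fell by 0.61 on the log2 scale at Dex 4 h (limma adjusted p = 0.013), or by 0.51 without vehicle replicate 1 (adjusted p = 0.073). On log2(RPKM + 1) this value was -0.27 (adjusted p = 0.016). Its exons overlap those of CMPK2 on the opposite strand by 351 bases.

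Of the 12 other effectors, 11 were kept and 3 were lower after Dex for 4 h, where 18.2% of all genes were. SAMD9, which restricts poxviruses, was listed at 4.86 and 4.24 RPKM in vehicle, 3.97 and 4.14 RPKM at Dex 2 h, 2.67 and 3.29 RPKM at Dex 4 h, 3.99 and 4.16 RPKM at CpdA 2 h, and 3.24 and 3.34 RPKM at CpdA 4 h. It was lower at 4 h with either ligand, at -0.60 for Dex (limma adjusted p = 0.0023) and -0.45 for CpdA (adjusted p = 0.014), and at 4 h Dex and CpdA differed by -0.14 (95% interval -0.38 to 0.09). The CpdA value of SAMD9 was -0.36 (adjusted p = 0.084) without vehicle replicate 1, -0.43 (adjusted p = 0.092) without CpdA 4 h replicate 1 and -0.48 (adjusted p = 0.067) without CpdA 4 h replicate 2. Its neighbour and paralog SAMD9L stood at 3.35 and 3.01 RPKM in vehicle, 3.18 and 3.02 RPKM at Dex 2 h, 2.06 and 2.27 RPKM at Dex 4 h, 3.23 and 3.36 RPKM at CpdA 2 h, and 2.65 and 2.76 RPKM at CpdA 4 h, with a Dex 4 h value of -0.53 (adjusted p = 0.0012).

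PARP14, a mono-ADP-ribosyltransferase, was listed at 4.73 and 4.37 RPKM in vehicle, 4.78 and 4.85 RPKM at Dex 2 h, 3.17 and 3.96 RPKM at Dex 4 h, 4.35 and 4.599 RPKM at CpdA 2 h, and 3.75 and 4.28 RPKM at CpdA 4 h. Its Dex 4 h samples lay apart from each other, and the value of -0.35 (limma adjusted p = 0.038) became -0.19 (adjusted p = 0.17) without Dex 4 h replicate 1, -0.30 (adjusted p = 0.17) without vehicle replicate 1 and -0.41 (adjusted p = 0.065) without vehicle replicate 2. Leaving out any 2 h sample gave an adjusted p of 0.058 to 0.06 for PARP14. TRIM22, a ubiquitin ligase, ran the other way, at 1.21 and 1.27 RPKM in vehicle, 1.4995 and 1.47 RPKM at Dex 2 h, 1.59 and 1.48 RPKM at Dex 4 h, 1.37 and 1.65 RPKM at CpdA 2 h, and 1.12 and 1.04 RPKM at CpdA 4 h. All 4 Dex samples lay above vehicle and both CpdA 4 h samples below it, and no difference from vehicle passed in the main fit (0.29 for Dex 4 h, adjusted p = 0.086). The Dex 4 h rise of TRIM22 passed in limma after median scaling (0.356, adjusted p = 0.045) and quantile normalization (0.415, adjusted p = 0.025). It also passed without the variance trend (0.29, adjusted p = 0.044). TRIM22 shares 642 of 12556 exon bases with OR56B1 on the same strand. ISG20, IFI6, IFI27, IFI35, IFI44, XAF1 and PARP9 passed in no comparison with vehicle.

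The ligands were then compared with each other, a difference in which the vehicle samples enter only the shared variance. At 4 h, 14 of 38 members were lower after Dex than after CpdA, where 18% of all genes were, and 3 were higher (IRF7, IRF9 and TRIM22), where 15.4% of all genes were. The median difference was -0.16 over the members and -0.02 over all genes. IFIT2 was lower by a log2 difference of -1.63 (SE 0.12, limma adjusted p = 9.1e-06), GBP1 by -1.47 (SE 0.06, adjusted p = 2.1e-07), RSAD2 by -0.91 (SE 0.144, adjusted p = 0.0012), OASL by -0.71 (SE 0.112, adjusted p = 0.0011) and DDX58 by -0.61 (SE 0.083, adjusted p = 0.00048). The other 9 were IFIT3, IFIT1, IRF1, GBP2, ISG15, IFIH1, SAMD9L, HERC5 and IFIT5, with differences from -0.51 to -0.16. With a pseudocount of 1 the RSAD2 difference was -0.43 (adjusted p = 0.0011). TRIM22 was higher by 0.47 (adjusted p = 0.0095), or by 0.29 with a pseudocount of 1, IRF7 by 0.45 (adjusted p = 0.0022) and IRF9 by 0.24 (adjusted p = 0.013). Leaving out CpdA 4 h replicate 2 took TRIM22 to 0.43 (adjusted p = 0.074), and leaving out CpdA 4 h replicate 1 took IRF9 to 0.20 (adjusted p = 0.099). HERC5 was not called when any of the 4 samples compared was left out (adjusted p from 0.057 to 0.17), IFIT5 without Dex 4 h replicate 1 or any CpdA sample (0.052 to 0.14), SAMD9L without Dex 4 h replicate 1 or either CpdA 4 h sample (0.062 to 0.11), and IFIH1 without CpdA 4 h replicate 2 (0.071). Without Dex 4 h replicate 2, PARP14 (-0.33), SAMD9 (-0.29) and DDX60 (-0.32) were called as well, all lower after Dex. DDX60 was also called without either vehicle sample (-0.26, adjusted p = 0.03).

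At 2 h, 5 of 38 members were lower after Dex than after CpdA, where 6.18% of all genes were, and 0 were higher, where 7.53% were. GBP1 was lower by -1.11 (limma adjusted p = 2.5e-06) and IFIT2 by -1.02 (adjusted p = 0.00041). OASL (-0.42), ISG15 (-0.27) and IFIT3 (-0.19) passed narrowly, with adjusted p between 0.029 and 0.038. Each of these 3 calls was lost when any Dex 2 h or CpdA 2 h sample was left out, with adjusted p from 0.058 to 0.19, and when either CpdA 4 h sample was left out, from 0.05 to 0.066. The median was -0.05 over the members and -0.01 over all genes.

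Within Dex, 17 of 38 members were lower at 4 h than at 2 h, where 9.02% of all genes were, and 0 were higher, where 4.55% were. The median change between the times was -0.28 over the members and -0.03 over all genes. IFIT2 (-0.86), IFIT3 (-0.73), DDX58 (-0.67) and IFIT1 (-0.62) changed by more than 1.5-fold, 4 of 38 against 2.1% of all genes. IRF1 was at -0.27 (adjusted p = 0.24). The number called depended on which sample was left out, and the share over all genes was not counted for those fits. Within CpdA, IFIT3, IRF7, PARP9 and TRIM22 were lower at 4 h, 4 of 38 against 7.2% of all genes, and 0 were higher, against 5.21%. The medians were -0.12 and -0.01. Here too the number called moved with the sample left out, even with Dex 4 h replicate 1, which enters only the shared variance.

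The vehicle samples were not alike for this set. Of the 38 members, 30 were higher in vehicle replicate 1 than in replicate 2, by a median of 0.10 on the log2 scale, while over all genes 6456 of 12713 were higher and the median was 0.003. The difference was largest for IRF1 (0.52) and reached -0.27 for OAS1. Set against the vehicle sample named for the same time, IFIT2 was at -1.07 after Dex for 2 h and -1.48 after Dex for 4 h, and IRF1 at -1.33 and -1.08. The number of members called against vehicle changed when a vehicle or treated sample was left out. The share over all genes was not counted for those fits, so that change cannot be read as particular to the members.

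The genes that make, receive and relay interferon were taken from a separate list of 34, of which 26 symbols were found and 25 kept. Of the 8 interferon genes, only IFNL1 was matched, and it was at or below 0.046 RPKM. Against vehicle, 3 of the 25 were higher and 8 lower after Dex for 2 h, 6 higher and 9 lower after Dex for 4 h, 0 higher and 8 lower after CpdA for 2 h, and 0 higher and 8 lower after CpdA for 4 h. The shares over all genes are those given above for the same comparisons. The medians were -0.05, -0.08, -0.12 and -0.14, in the same order.

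Of the receptor genes, IFNAR2 and IFNGR2 fell with both ligands. IFNAR2, a chain of the type I receptor, was listed at 5.72 and 5.51 RPKM in vehicle, 4.42 and 4.12 RPKM at Dex 2 h, 3.75 and 3.87 RPKM at Dex 4 h, 3.75 and 3.97 RPKM at CpdA 2 h, and 3.96 and 3.76 RPKM at CpdA 4 h. All treated samples lay below vehicle, by log2 differences of -0.39 to -0.55 that each passed in limma. IFNAR1, the other chain, was at -0.22 and -0.21 after CpdA (adjusted p = 0.036 and 0.018) and passed with Dex at neither time (adjusted p = 0.65 and 0.26). IFNGR2, of the interferon-γ receptor, fell from 70.7 and 67.9 RPKM in vehicle to 53.7 and 47.1 RPKM at Dex 4 h and to 38.5 and 36.4 RPKM at CpdA 4 h, or by -0.46 and -0.89 on the log2 scale. Between the ligands at 4 h, IFNGR2 was higher after Dex by 0.43 (adjusted p = 0.00079).

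The kinase genes JAK1 and JAK2 rose with Dex at 4 h and did not pass with CpdA. JAK1 was higher at Dex 4 h by 0.39 on the log2 scale (limma adjusted p = 0.0027) and JAK2 by 0.76 (adjusted p = 0.0014), the latter from 1.06 and 1.07 RPKM in vehicle to 1.68 and 2.07 RPKM. TYK2 lay between 24.2 and 27.6 RPKM and passed in no comparison.

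Of the 9 sensing genes, 2 were higher and 5 lower after Dex for 4 h, where 9.26% and 18.2% of all genes were. After CpdA for 4 h, 0 were higher and 4 lower, where 6.76% and 13.8% of all genes were. MB21D1 (cGAS), the sensor of cytosolic DNA, was listed at 25.04 and 23.9 RPKM in vehicle, 15.9 and 16.9 RPKM at Dex 2 h, 12.7 and 14.7 RPKM at Dex 4 h, 24.1 and 25.7 RPKM at CpdA 2 h, and 21.5 and 22.8 RPKM at CpdA 4 h. It was lower with Dex, at -0.58 and -0.83 (limma adjusted p = 0.00071 and 3e-05), and at 4 h lower than with CpdA by a log2 difference of -0.69 (adjusted p = 8.3e-05). TRIM25, the ubiquitin ligase that activates RIG-I, fell with CpdA from 38.5 and 38.2 RPKM to 16.0 and 16.6 RPKM at 2 h and 17.0 and 17.2 RPKM at 4 h, and with Dex at 4 h to 20.9 and 24.4 RPKM. Its log2 changes were -1.23 and -1.16 for CpdA and -0.76 for Dex 4 h, the first 2 with an adjusted p of 1.4e-05. IKBKE, a kinase upstream of IRF3 and IRF7, was at -0.59 after CpdA for 4 h (adjusted p = 0.00011) and -0.46 after Dex for 4 h (adjusted p = 0.00015). The genes higher with Dex were DHX58 (LGP2), a regulator in the RIG-I family, and TMEM173 (STING), the adaptor that acts after cGAS, both named after their values were seen. DHX58 stood at 2.04 and 2.02 RPKM in vehicle, 2.78 and 2.70 RPKM at Dex 2 h and 3.04 and 2.81 RPKM at Dex 4 h, with log2 changes of 0.41 and 0.50 (adjusted p = 0.011 and 0.0017). TMEM173 was higher with Dex by 0.22 and 0.23 (adjusted p = 0.038 and 0.013) and lower after CpdA for 4 h, at -0.30 (adjusted p = 0.0054).

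The feedback inhibitors SOCS1 and SOCS3 were uneven in vehicle. SOCS1 stood at 3.77 and 7.61 RPKM in vehicle, 11.6 and 10.8 RPKM at Dex 2 h, 6.45 and 5.99 RPKM at Dex 4 h, 2.59 and 2.15 RPKM at CpdA 2 h, and 3.12 and 3.41 RPKM at CpdA 4 h. Dex 2 h lay above both vehicle samples and CpdA below both, and between the ligands at 2 h the difference was 2.20 (SE 0.252, limma adjusted p = 0.00035). SOCS3 stood at 6.64 and 9.39 RPKM in vehicle and 2.52 and 2.42 RPKM at Dex 2 h, and its log2 changes were -1.64 at Dex 2 h, -0.84 at Dex 4 h and -0.89 at CpdA 2 h, with adjusted p of 4.9e-05, 0.0016 and 0.0059. It was higher at Dex 4 h than at Dex 2 h by 0.80 (adjusted p = 0.0057).

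**Figure D4:**
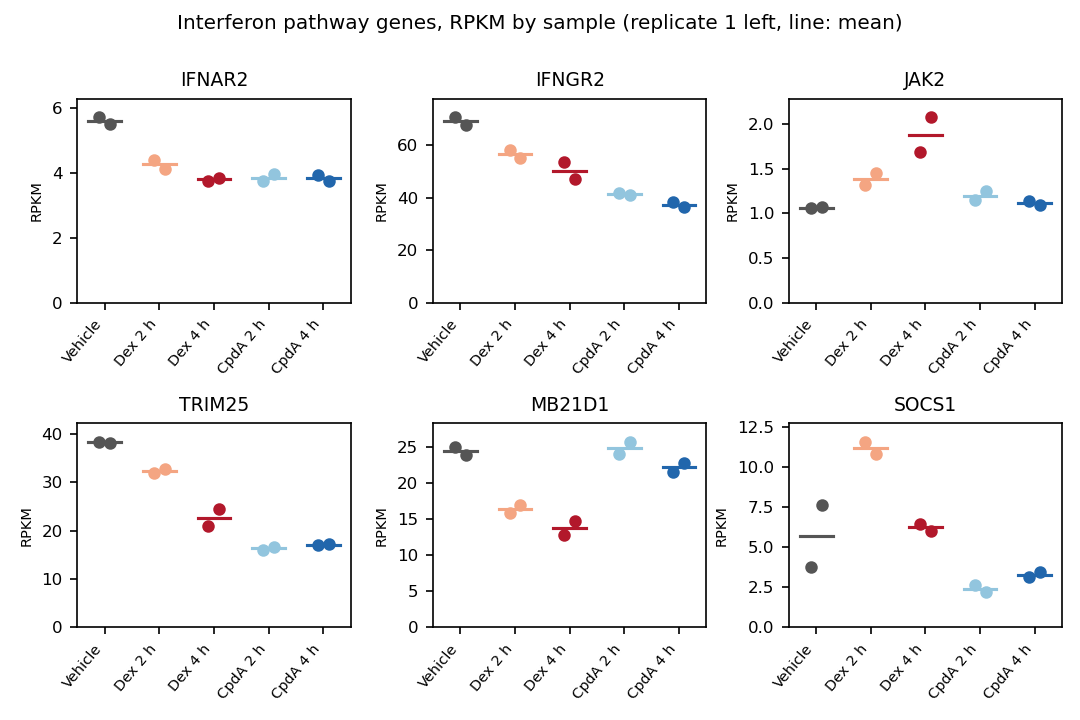
RPKM of 6 genes of the interferon pathway in each sample, on axes that start at 0, with lines at group means. IFNAR2 is below vehicle in all 8 treated samples, IFNGR2 and TRIM25 are lowest after CpdA, JAK2 is higher at Dex 4 h, MB21D1 is lower after Dex, and SOCS1 differs between the vehicle samples.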

How the data were processed

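RNA-seq was analysed for 10 samples in 5 groups of 2, taken from the labels. Per the study's methods and processing notes, 50-base single-end reads were aligned with TopHat2 2.0.13 and quantified with Partek 6.6. The notes name hg19, and how transcripts were combined into symbols is not given in the sources used here. The authors deposited RPKM for 20668 symbols in each sample. Read totals are unknown. Values were analysed as log2(RPKM + 0.1), a scale that understates changes of low genes. A gene was tested if 2 or more samples had an RPKM of 0.5 or higher (12713 genes). In R 4.3.3, limma 3.58.1 (lmFit, eBayes with trend) fitted the 5 groups together without a replicate block, and 8 comparisons were taken from that fit, with p-values adjusted by Benjamini-Hochberg over all genes kept. The study calls the samples of a group biological replicates, but whether they were separate cultures is not stated, so p-values measure the spread between these samples. Deviations of samples with the same number were at most weakly correlated between groups (from -0.0568 to 0.1975, median 0.04, 3 of 10 pairs over 0.1). The summed RPKM of the 41 members was, however, higher in replicate 1 than in replicate 2 in every group. It was 799.5 and 773.8 in vehicle and 756.4 and 653.7 at Dex 4 h. The summed RPKM of all listed genes was also higher in replicate 1 in every group, with 323419 and 308691 at Dex 4 h. With each member given equal weight, the mean log2 value at CpdA 4 h was not higher in replicate 1 (2.854 and 2.865). The pattern of the sums was thus not particular to the members. Counts from a fit with a replicate block are given below. The fit was also run on simulated data for Dex 4 h against vehicle (12713 genes). It found 53 of 67 genes shifted by 0.6 (log2), 64 of 67 shifted by 1 and 66 of 66 shifted by 2. There were 8 false calls. The noise was normal and independent between genes, and only these genes were shifted, all with a positive mean log2 value in vehicle. Far more genes were called in the real data, so these numbers do not give the recovery of low members or the false calls there.

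The members and gene lists were chosen with earlier results of these data known. Full values are given for the 20 members called against vehicle or between ligands and for ISG15, IFIT1, MX1, OAS1, STAT2, IRF1, IRF7 and IRF9, which makes 23 genes. Pathway genes were named at an adjusted p under 0.05 and a fold change over 1.5 against vehicle, with JAK1, TYK2, IFNAR1, IFNAR2 and SOCS1 named in any case, DHX58 and TMEM173 were added after their values were seen, and 1 gene first placed on that list is not reported here. Gene positions are from GENCODE on GRCh37 and promoter windows from RefSeq. Alternatives were other pseudocounts, filters, scalings and variance models, a replicate block, only the 4 samples compared, and each sample left out in turn. ChIP-exo and ChIP-seq files were not used here. Figures and tables used Python 3.11.15, numpy 2.4.6, pandas 2.3.3, scipy 1.17.1 and matplotlib 3.10.9.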

Additional observations from a re-analysis of the deposited data

Results flagged for a closer look

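Members whose level differed between 2 h and 4 h of the same ligand, by the limma test of that difference, were noted. For Dex, 17 of 38 members were lower at 4 h than at 2 h, where 9.02% of all genes were. The log2 differences were -0.86 for IFIT2, -0.73 for IFIT3, -0.67 for DDX58, -0.62 for IFIT1 and -0.24 for IFIT5, and -0.56 for RSAD2, -0.50 for SAMD9L and -0.44 for SAMD9. They were -0.43 for GBP1, -0.43 for PARP14, -0.42 for OASL, -0.40 for PARP9, -0.39 for XAF1, -0.36 for DDX60, -0.34 for IFIH1, -0.31 for HERC5 and -0.26 for GBP2. For CpdA, 4 of 38 members were lower at 4 h, where 7.2% of all genes were. The log2 differences were -0.45 for TRIM22, -0.44 for PARP9, -0.40 for IFIT3 and -0.39 for IRF7. With 2 samples a group, no group was large enough to be examined for a sample far from the others.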

How the results depend on the processing

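Over 20 alternatives, 2575 of 2748 values of named members kept their side of the threshold, 147 were lost, 26 were gained and 0 turned from a call in 1 direction to a call in the other; a change of sign past the threshold under neither setting was not counted. A value not called in the main fit could not be lost, so the losses fell on the called values alone. Calls were lost in 14 of 20 alternatives for DDX58 at CpdA 4 h and for IRF1 between ligands at 4 h. At Dex 4 h they were lost in 13 of 20 for DDX60 and PARP14 and 12 of 20 for ISG15. For IFIT2, IFIT3, IRF1, GBP1 and DDX58 at Dex 4 h it was 0 of 20. The number of members called moved by more than 1.5 times in few settings. Without moderation of the variance it was 1 for CpdA 2 h, 4 for CpdA 4 h, 2 for Dex against CpdA at 2 h, 9 for Dex 4 h against 2 h and 2 for CpdA 4 h against 2 h. Without the filter it was 2, 8 and 2 for the last 3 of these. For Dex against CpdA at 2 h it was 2 with eBayes without trend. For Dex 4 h against 2 h it was 11 after quantile normalization and 7 with only the 4 samples of the contrast, which gave 13 for CpdA 4 h against 2 h. Leaving out 1 sample gave 3 to 5 for Dex 2 h, 13 to 18 for Dex 4 h, 1 to 6 for CpdA 2 h, 2 to 9 for CpdA 4 h, 2 to 5 for Dex against CpdA at 2 h, 11 to 20 at 4 h, 5 to 18 for Dex 4 h against 2 h and 1 to 9 for CpdA 4 h against 2 h. The cause was not tested. The share over all genes was not counted for these alternatives, so the counts cannot be read as particular to the members. The labels do not say what samples with the same replicate number shared. With that number as a block, the counts against vehicle were 4, 19, 3 and 6 (Dex 2 h, Dex 4 h, CpdA 2 h and CpdA 4 h). They were 6 and 17 between ligands at 2 h and 4 h, and 18 and 5 between times for Dex and CpdA. After median scaling 2 members were higher and 13 lower at Dex 4 h. TRIM22 was gained there, and DDX60, PARP14 and ISG15 were lost (limma adjusted p = 0.081, 0.068 and 0.2). Depth in reads is unknown, which limits RSAD2, OAS1 and the other low members.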
